A study of Drosophila melanogaster with 4 samples.

Results

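Dense groups of Cmi peaks were runs of 5 or more ChIP-seq peaks in which each peak had its midpoint at most 5000 bp from the next. The members were chosen by the positions of the deposited peaks on X, 2L, 2R, 3L, 3R and chromosome 4 alone. By this rule 490 peaks in 70 groups were members, which is 18.3% of the 2679 peaks on these 6 sequences and part of a deposited list of 3110 peaks. The remaining 2189 peaks of the same sequences comprised 1222 peaks in 495 groups of 2 to 4 and 967 single peaks.

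Cmi (CG5591, listed as Lpt in the gene table used here) belongs to the Trithorax-related complex of Drosophila. Its zinc-finger domains correspond to the amino-terminal part of the mammalian proteins KMT2C and KMT2D, whose catalytic part is represented in the fly by Trithorax-related. The complex adds methyl groups to lysine 4 of histone H3 and is known for its action at enhancers, the distal elements that control when and where a gene is transcribed. Genes under developmental control are often served by several enhancers spread over many kilobases.

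The data came from 2 libraries immunoprecipitated with an affinity-purified polyclonal rabbit antibody against full-length Cmi and 2 libraries of input DNA, all from Drosophila melanogaster embryos of 0 to 8 h. All 4 libraries carry the strain label Exd-GFP-13T and the genotype w; PBac{y[+]-attP-3B}VK00033, with a transgene in which GFP replaces the stop codon of the extradenticle gene; sex is given as unknown. The extraction text of the same labels names another stock and a later egg collection, and the stage and strain fields were followed. Whole embryos mix cell types and stages, so a group of peaks need not be occupied in any 1 cell at the same time.

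The deposited list held 1 position and 1 score per peak for the whole experiment and no value per library. Spread between replicates could therefore not be given, library depth is unknown, and every value below describes this list without a test over samples. Position, width and score come from the same comparison of immunoprecipitated with input DNA that chose the members, so differences between members and other peaks are given as descriptions. Intervals are 95% binomial intervals (Wilson for shares, order statistics for medians); they cover counting error of peaks only and treat peaks as independent. Coordinates are those of FlyBase release 5. Genes were not assigned to the groups here.

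The groups were mostly small, with a long tail of fuller ones. Of the 70 groups, 28 held 5 peaks, 15 held 6 and 7 held 7. A further 4 groups held 8 peaks and 5 held 9. The 11 groups of 10 or more peaks contained 134 members, or 27.3% of all members. The median group spanned 9370.5 bp from the first to the last edge (interval 8176 to 10622 bp), and spans ran from 3418 to 27701 bp. Together the groups spanned 760.5 kb, of which 323.9 kb or 42.6% lay inside peaks. This covered length was 19.8% of all the sequence inside peaks on the 6 sequences, close to the members' 18.3% of the peaks.

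Chromosome arms contributed unequally to the groups. 2R held 19 groups with 133 members, 3R 18 groups with 118, X 14 groups with 87, 3L 13 groups with 111 and 2L 6 groups with 41. As a share of the peaks of its own arm, membership was 22.0% on X (interval 18.2 to 26.4), 21.7% on 2R (18.6 to 25.2), 20.6% on 3L (17.4 to 24.2) and 17.2% on 3R (14.6 to 20.2). The intervals of these 4 arms overlapped. 2L stood lower at 9.56% (7.12 to 12.7), an interval that did not reach those of the other large arms. However, the rule makes peaks members in whole groups, and the 41 members on 2L came from only 6 groups. Intervals that count single peaks as independent are then too narrow. Whether 2L differs from the other arms therefore cannot be decided from them, and its lower share is a description. None of the 18 peaks of chromosome 4 was a member, which allows a share of up to 17.6% if peaks are counted as independent.

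Along the arms, the members were spread unevenly, with the clearest concentration at the start of X. Each arm was divided into 5 equal stretches between its first and last peak. In the first stretch of X, 48 of 112 peaks (42.9%) were members and 7 of the 14 groups of X lay there. In the other stretches of X the share was 12.8%, 21.1%, 0% and 16.4%. Those stretches held 94, 76, 46 and 67 peaks, so the first was also the fullest in peaks, and membership by distance depends on how close peaks lie. Peaks become members in whole groups, so each share rests on few groups and is a description. The median midpoint of the members on X was 3732105.5, whereas that of the other X peaks was 9390849.75. Stretches without any group were also found on 2L (the third, with 56 peaks) and 3L (the second, with 69 peaks). On 2R the share ran only from 13.1% to 28.8% and on 3R from 9.82% to 20.5%, so that no stretch of these arms was without groups.

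**Figure D1:**
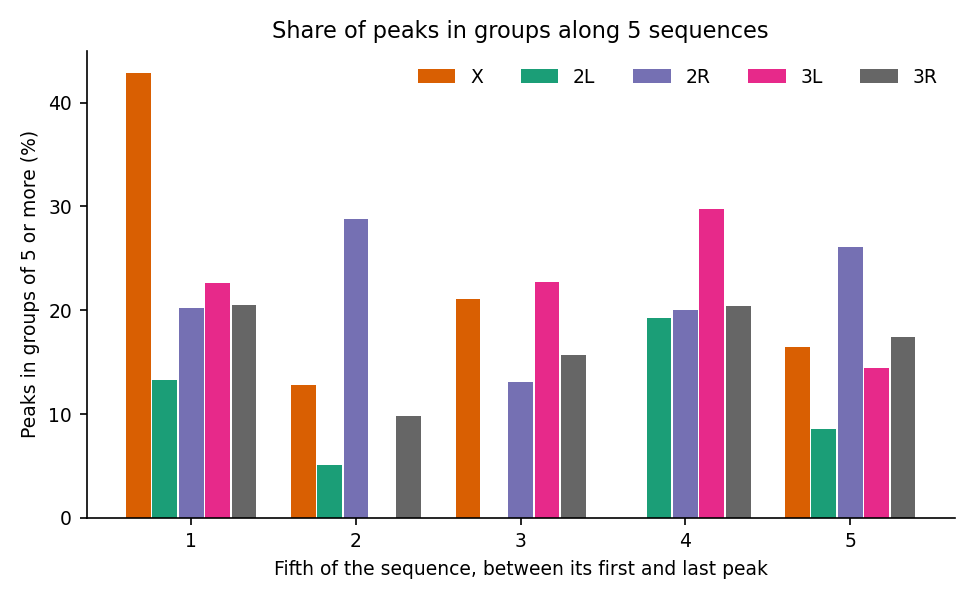
Share of Cmi peaks that belong to groups of 5 or more (vertical axis, %) in 5 equal stretches of each arm between its first and last peak (horizontal axis), with a bar per arm. The first stretch of X reaches 42.9%, and a missing bar marks a stretch with 0 members.

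The 3 fullest groups were covered by peaks over 44.7% of their span or less. Of the 2 groups of 16 peaks, that on 3L (613595 to 641295) was the longest of all at 27701 bp, and its peaks scored from 6.78 to 40.99 with a median of 13.805. Its highest peak was the last one, 2071 bp wide, while the 15 before it all scored 25.16 or less. The group of 16 on 2R (7480785 to 7502898) had its highest peak inside the run, at the seventh position (score 43.55, 929 bp), and its 16 peaks were narrow, with a median of 385 bp. The group of 13 on 3L (17992493 to 18015892) spanned 23400 bp with 31.7% covered and scores from 6.93 to 50.16.

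The 3 groups of 12 differed widely from each other. On 3L (10835882 to 10855546) the peaks had a median score of 30.83, the highest of the 11 fullest groups. Its central 7 peaks scored 45.11, 26.24, 61.35, 50.84, 19.03, 55.67 and 64.25 in order along the arm and were separated by gaps of 109 to 561 bp. The first 3 peaks of that group, in contrast, scored 9.19, 8.83 and 10.54. On 2R (2476484 to 2500621) the median score was 10.59, the 12 peaks covered 26.6% of 24138 bp, and the highest score was 38.47. On 3R (27522922 to 27533236) the 12 peaks were packed into 10315 bp, 69.0% of it covered, around 1 peak of 2663 bp with a score of 36.03; the median score was 10.32 and the shortest gap 63 bp.

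The remaining groups of 10 or more covered a similar range. The group of 11 on 2R (18563716 to 18578811) held peaks of 34.22, 67.2, 35.42 and 100.42 among 7 others that scored 16.2 or less. The group of 11 on 3R (21843187 to 21868686) had a median score of 25.7 and was loosely spaced, with a median distance of 2552.75 bp between midpoints. The group of 11 on X (2187655 to 2202873) reached 34.22 at most, at its last peak of 2375 bp, and was 60.5% covered. The groups of 10 lay on 2L (507227 to 523935, top score 43.55, 33.7% covered) and 3L (10658369 to 10675447, top score 32.45, 29.6% covered).

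**Figure D2:**
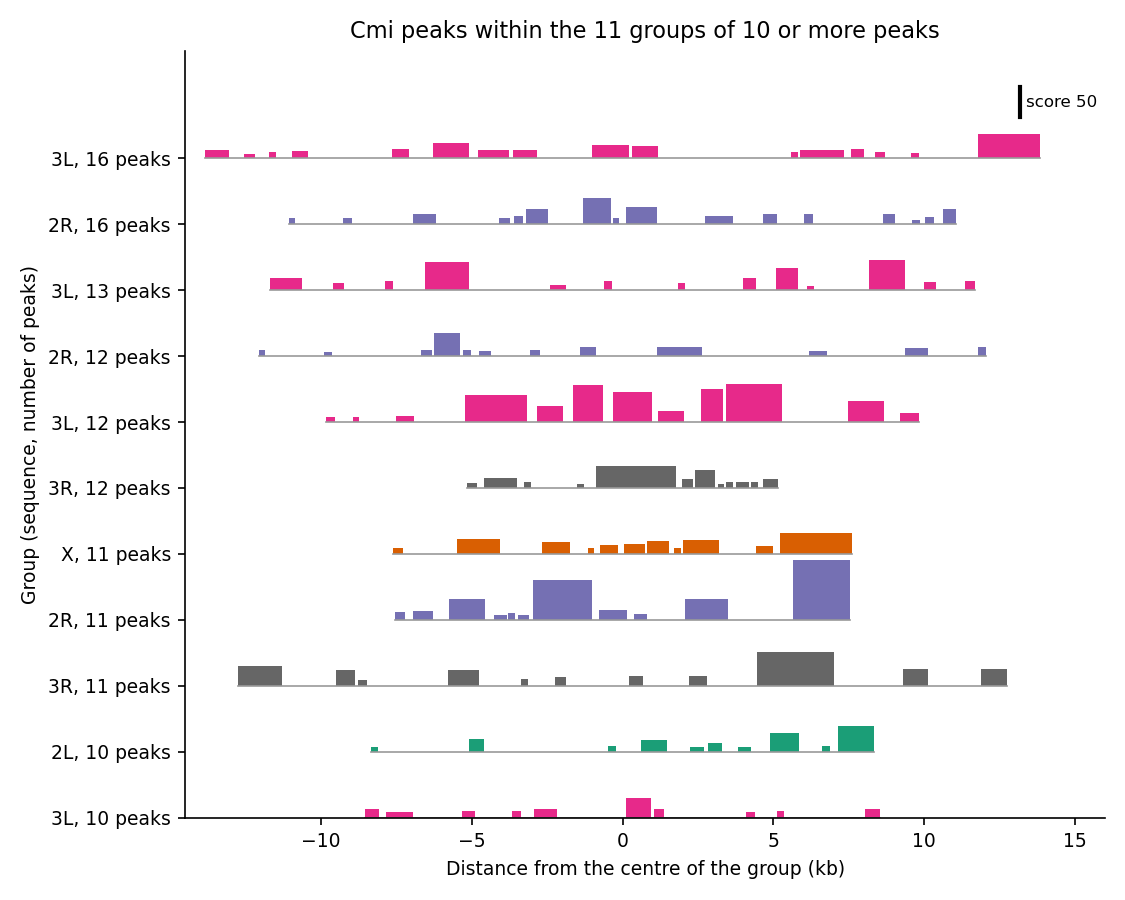
Peaks within the 11 groups of 10 or more, drawn to scale as distance from the centre of each group (horizontal axis, kb), with the height of each bar proportional to the authors' score (scale bar, score 50) and colour by arm. The 3L group of 12 shows a run of high neighbouring peaks, whereas in the 16-peak group on 3L the highest bar is the last, at 40.99.

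Peaks within a group were closely spaced, which the rule itself required up to 5000 bp. The 420 distances between neighbouring midpoints had a median of 1366 bp (quartiles 858 and 2201.9 bp), and 293 of them, in the ranges up to 1000 bp (34.5%) and above 1000 up to 2000 bp (35.2%), were well below the limit. In the 495 groups of 2 to 4 peaks the median distance was 1355.5 bp (interval 1219.5 to 1477.5 bp), within the interval of the dense groups (1254 to 1464 bp). The median distance per group was 1260 bp in groups of 4 (interval 1011 to 1622.5 bp), 1542.75 bp in groups of 5 (1213.25 to 1877 bp), 1231.5 bp in groups of 7 to 9 and 1372.5 bp in groups of 10 or more, with overlapping intervals. Across the 70 groups, number of peaks and median distance had a Spearman correlation of -0.16.

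Measured from edge to edge, many neighbours were nearly continuous. The median gap was 631 bp, and 85 of the 420 gaps (20.2%, interval 16.7 to 24.3) were under 200 bp, 182 (43.3%) under 500 bp and 265 (63.1%) under 1000 bp. The corresponding shares in groups of 2 to 4 were 24.6% (21.6 to 27.9), 45.7% and 60.5%. No gap in either kind of group was below 50 bp and no peak of the 6 sequences was narrower than 201 bp. When peaks with a gap of at most 1 kb were joined, the 490 members became 225 stretches with a median width of 1287 bp. Of the 70 groups, 8 became a single stretch, 53 became 2 to 4 stretches and 9 still held 5 or more.

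The longest of these joined stretches were several kilobases wide. The longest ran over 10527 bp on 3L (10840478 to 10851004) and was the high central run of the group of 12 described above, with 8657 bp inside peaks. The next was the whole group of 8 peaks on X (1837514 to 1846579, 9066 bp). Joined stretches of 8824 bp on 2L (515112 to 523935) and 8364 bp on 2R (18563716 to 18572079) followed.

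The share of a group's span inside peaks varied from 19.0% to 79.8%, with a median of 41.6% (interval 36.5 to 50.9). In groups of 2 to 4 peaks the median share was higher, 55.1% (51.8 to 58.9). The median number of peaks per kb of span was 0.64 in the dense groups and 0.88 in groups of 2 to 4. Groups of fewer peaks have fewer gaps per peak, so both measures depend on group size by construction. Among the dense groups the covered share was above 50% in 28 and below 30% in 13. The 5 most densely covered groups held 5 to 8 peaks. The group on X named above led with 79.8%: its peaks were 1570, 886, 387, 245, 1266, 341, 2180 and 359 bp wide in order along the arm. The group of 5 on 2R at 3373839 to 3380780 followed with 77.8%, of which 1 peak of 2475 bp formed the largest piece. On 3L a group of 6 from 19900000 to 19903425 reached 77.6% with gaps of 52 to 384 bp, on 2L a group of 5 from 16350101 to 16353518 reached 77.4%, and on 3R a group of 5 from 10563512 to 10567429 reached 77.3%. The least covered group, 5 narrow peaks on 2R from 5817118 to 5825851, had 1663 bp inside peaks over 8734 bp.

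Longer groups tended to be less covered, and covered share was not tied to the number of peaks. Across the 70 groups, span and covered share had a Spearman correlation of -0.34 and number of peaks and covered share one of -0.02. Covered share and the highest score had one of 0.38. Span is the denominator of the covered share, so the negative correlation between them is partly built in. These are descriptions over groups of 1 list, and width, span and score share the same peak calls.

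**Figure D3:**
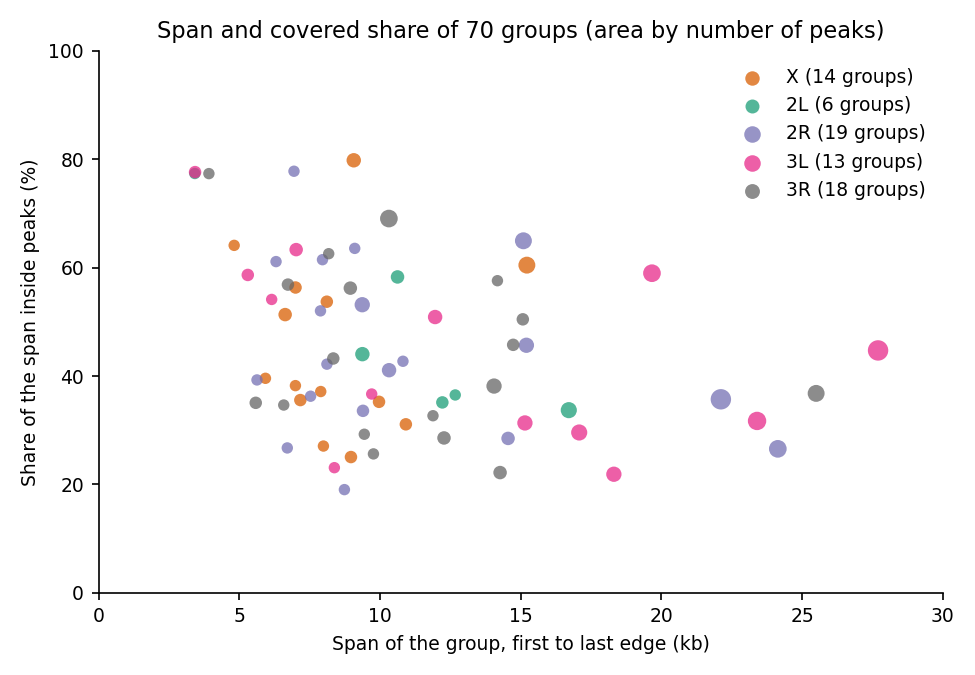
Span (horizontal axis, kb) and share of the span inside peaks (vertical axis, %) of the 70 groups, with point area by number of peaks and colour by arm. Covered shares run from 19.0% to 79.8%, and the 5 longest groups, all above 22 kb, lie at 44.7% or less.

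Members differed little from other peaks in their typical score. The authors' score has no stated scale; its recurrent values match those of −log10 of a Poisson probability for whole read heights over a background of about 31.1 reads, and it is used here only to compare peaks of this list. The median score was 14.86 in the groups (interval 13.99 to 15.49, n = 490 peaks), 13.99 in groups of 2 to 4 (13.56 to 14.85, n = 1222) and 13.99 among single peaks (13.51 to 14.42, n = 967). The difference between members and all other peaks was 0.87, and the member interval touched the value of the others. Of the members 73.5% (360 peaks) had a score on that series, and of the other peaks 72.7% (1591 peaks). For these the fit would give a median read height of 2.73 times the background in members and 2.70 times in other peaks. Such heights are a transform of the score and were not measured. The series held 93.1% of the members on X but 69.2% of those on 2L, 2R, 3L and 3R. Other peaks showed the same split, with 94.2% on X and 69.2% on 2L, 2R, 3L and 3R, so it is not particular to members.

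High scores were somewhat more frequent in members, although the intervals overlapped. A score above 50 was found in 36 of 490 members (7.35%, interval 5.35 to 10.0), in 4.75% of the other peaks (3.94 to 5.72) and in 5.23% of all 2679 peaks. The 36 peaks lay in 27 of the 70 groups, a count that rises with the number of peaks per group by construction. Of the 61 groups of 4, 13 held a score above 50. At scores above 80 there were 9 members (1.84%, interval 0.969 to 3.45), against 1.23% of the other peaks and 1.34% of all peaks. Among the other peaks the share above 80 was 1.65% in single peaks (16 peaks, interval 1.02 to 2.67), close to that of members. In groups of 2 to 4 it was 0.90% (11 peaks, interval 0.503 to 1.60). Above the upper quartile of all peaks (25% by construction) lay 28.2% of the members and 24.3% of the others, with overlapping intervals. Of the 20 highest peaks of the 6 sequences, 7 were members, in 5 groups, or 35% (interval 18.1 to 56.7), beside the 18.3% of all peaks that were members.

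The 5 groups with the highest single scores were mostly groups of 5. On 3R, the group from 12073277 to 12081452 held peaks that scored 9.19, 16.21, 176.09, 31.87 and 81.73 in order, the third being the highest of all members and 1674 bp wide. Its neighbour from 12054665 to 12068837 scored 10.7, 12.68, 118.42, 9.77 and 113.19, so 2 peaks stood far above 3 weak ones. Those 2 high peaks, 3243 and 2908 bp, were also the widest of all members. On 2R, the group from 17588021 to 17597121 scored 13.48, 106.32, 71.7, 109.74 and 11.49, a core of 3 high peaks with a weak peak on either side, and its median of 71.7 was the highest of any group. The group of 11 on 2R with its final peak of 100.42 was the fourth. The fifth, a group of 5 on 2R from 5434019 to 5441902, began with a peak of 93.79 and continued with 7.46, 7.78, 14.86 and 12.71.

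The weakest groups contained no high peak at all. The lowest top score was 14.48, in a group of 6 on 3R from 13992464 to 13998046 with scores of 9.56, 12.3, 8.56, 14.48, 8.83 and 7.78. This group also had the shortest median distance, 444 bp. Next came a group of 5 on 3L from 11407598 to 11415974 (top score 15.49), a group of 6 on X from 3026102 to 3035068 (17.6), the least covered group on 2R (18.55) and a group of 5 on 2R from 9878001 to 9883627 (20.01). In 4 of the 70 groups the top score was below 20.

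The most closely spaced groups were not those with the highest scores. After the weakest group, the shortest median distances were 504.5 bp in the group of 6 on 3L that was 77.6% covered, 572.5 bp in the group of 12 on 3R, 600 bp in a group of 6 on 3L from 3069859 to 3075158 (top score 35.42) and 748.5 bp in a group of 7 on 3R from 2636243 to 2648516 (top score 35.42). The other extreme was 3379.25 bp, in the 3R group with the pair of high, wide peaks.

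Scores varied far more within groups than between them. The highest peak of a group scored a median of 4.89 times its lowest (range 1.59 to 19.2) and 2.34 times its median peak. In 25 groups it scored at least 3 times the median peak. Both ratios tend to grow with the number of peaks by construction. Their medians were 1.86 and 1.32 in groups of 2 to 4, and 5.87 and 2.97 in groups of 10 or more. On the log2 scale the standard deviation of the score was 0.86 within groups and 0.19 between groups, so that 4.46% of the variance lay between groups, compared with 7.96% in groups of 2 to 4. The scores of the 420 pairs of neighbours in a group had a Spearman correlation of 0.06. The number of peaks and the median score of a group had a Spearman correlation of -0.01 over 70 groups.

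**Figure D4:**
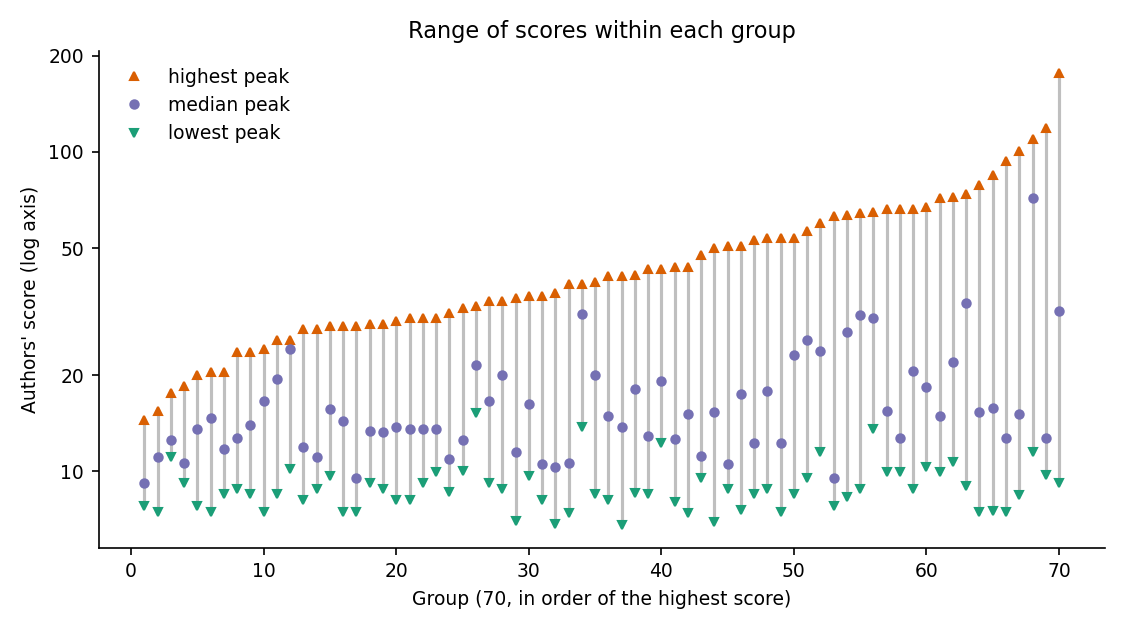
Highest, median and lowest score (vertical axis, log scale) in each of the 70 groups, ordered by the highest score (horizontal axis). The highest scores run from 14.48 to 176.09, whereas the lowest peak of every group lies between 6.78 and 15.27.

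The highest peak of a group lay inside it or at an end. It lay at neither end in 40 of 70 groups (57.1%, interval 45.5 to 68.1), while 350 of the 490 members (71.4%) lay at neither end. The second share is taken over peaks, so fuller groups, with more peaks inside, weigh more in it than in the first. How much of the difference between these shares this weighting makes was not computed. In 30 groups the highest peak was the first or last. Peaks at the ends and inside had the same median score of 14.86 (n = 140 and 350), while the upper quartile of the score was 28.44 at the ends and 23.57 inside. Their median widths of 428 bp (interval 374 to 490 bp) and 498 bp (452 to 561 bp) had overlapping intervals. The highest peak was also the widest in 41 of 70 groups (58.6%, interval 46.9 to 69.4). In groups of 2 to 4 it was in 75.6% (71.6 to 79.1), where there are fewer peaks among which the widest can fall.

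Members were slightly wider than single peaks. The median width was 475 bp in members (interval 440 to 516 bp), 466.5 bp in groups of 2 to 4 (443 to 489 bp) and 413 bp in single peaks (394 to 438 bp). Against all other peaks (442 bp) the difference was 33 bp, and the member interval reached below that value. Peaks wider than 1000 bp made up 19.2% of members (94 peaks, interval 15.9 to 22.9), 15.5% of peaks in groups of 2 to 4 (13.5 to 17.6), 10.1% of single peaks (8.39 to 12.2) and 14.2% of all peaks. At least 1 such peak was present in 52 of the 70 groups, a count that rises with the number of peaks per group by construction. After the pair on 3R, the widest members were on 3R at 27527192 to 27529854 (2663 bp, score 36.03), 5698051 to 5700672 (2622 bp, 64.98) and 21860399 to 21862963 (2565 bp, 56.37). All 5 of the widest members were thus on 3R.

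At matched scores the widths were close in weak peaks, and members were the wider in 3 of the 4 ranges above 20, with overlapping intervals. Up to a score of 10 the median width was 264 bp in members and 269 bp in other peaks. Above 20 and up to 30 it was 834 bp (interval 703 to 880 bp, n = 74) in members and 672 bp (648 to 724 bp, n = 336) in the others, a ratio of 1.24. Above 30 and up to 50 the values were 1147.5 bp (968 to 1357 bp, n = 52) and 962 bp (904 to 1062 bp, n = 209), a ratio of 1.19. Above 50 and up to 80 the order turned, with 1219 bp in members (n = 27) and 1324 bp in the others (n = 77). Above 80 members were again the wider, with 1885 bp (1370 to 2908 bp, n = 9) and 1414 bp (990 to 2280 bp, n = 27), a ratio of 1.33. These 7 score ranges were chosen with the data in view, and the score and the width of a peak are tied through the caller.

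**Figure D5:**
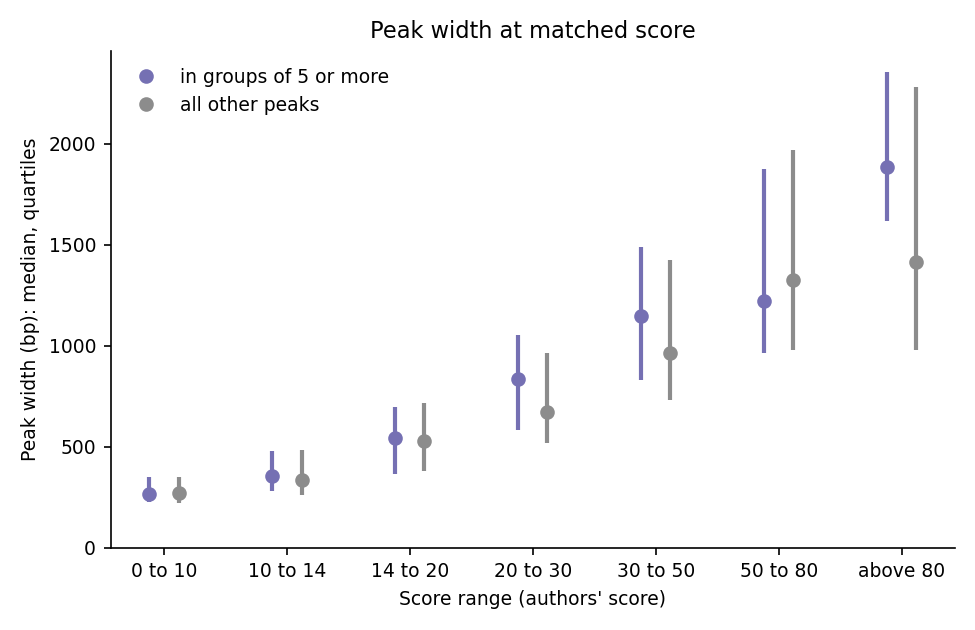
Peak width (vertical axis, bp) in 7 ranges of the authors' score (horizontal axis), as medians (points) with quartiles (lines), for members of groups of 5 or more and for all other peaks of the 6 sequences. Between scores of 20 and 30 the medians are 834 and 672 bp, between 50 and 80 they are 1219 and 1324 bp, and above 80 they are 1885 and 1414 bp.

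Arm by arm, the median width of members was 507.5 bp on 3R, 475 bp on 2R, 472 bp on X, 452 bp on 3L and 443 bp on 2L. On each of these 5 arms it was above that of the other peaks of the same arm, by amounts within the intervals of the members. The median score of members was 16.82 on 2L (interval 11.48 to 23.83, n = 41), 15.75 on 3R and 13.99 on X. On 2R it was 14.23 in members and 14.42 in the others, the only one of the 5 arms on which members had the lower median.

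Some groups lay next to each other, with no other peak between them. In 7 cases the gap between 2 groups was at most 20 kb, and in all 7 no peak lay in the gap. The shortest gap, 4439 bp, separated the 2 high-scoring groups on 3R, whose 10 peaks extended over 26788 bp. On 3L the groups of 5 (17981140 to 17987288) and 13 peaks were separated by 5204 bp and together held 18 peaks. On 3R the groups of 6 (21821829 to 21836903) and 11 peaks were 6283 bp apart, with 17 peaks over 46858 bp. On 2R the group of 16 was followed after 14209 bp by a group of 8 (7517108 to 7527428), which made 24 peaks over 46644 bp. On 2R the groups of 6 (15136794 to 15146187) and 5 (15152485 to 15163299) were 6297 bp apart. On X the group of 11 was followed after 8535 bp by a group of 7 (2211409 to 2218036), and on 3R groups of 7 (4849854 to 4864120) and 6 (4874195 to 4882533) were 10074 bp apart.

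Most other groups were far from the next group of 5 or more. The median gap to the nearest group was 284.2 kb. From the end of a group to the next peak outside it, the median distance was 20874.5 bp between midpoints (interval 15762 to 25790.5 bp, n = 133 flanks, with a distance between 2 neighbouring groups counted once). In 33 of the 133 flanks the next peak was within 10000 bp, and in 36 it was more than 50 kb away. In 32 of the 70 groups another peak lay within 10 kb of an end, while in 17 no peak lay within 20 kb on either side.

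Groups just inside the limits of the rule had the following values beside those just outside. The 28 groups of exactly 5 peaks had a median span of 7924 bp, a median covered share of 39.4% (interval 36.3 to 57.6) and a median top score of 36.66 (27.89 to 59.91). The 61 groups of exactly 4 peaks had 5612 bp, 47.05% (39.7 to 57.1) and 27.33 (22.61 to 36.03). Span and top score tend to rise with each added peak by construction. The median score per group had the other order, 13.56 in groups of 5 (12.3 to 20.01) and 14.655 in groups of 4 (13.135 to 15.845), with overlapping intervals. Within the groups 11 of the 420 distances were above 4500 bp, the longest being 4938.5 bp, and 6 of the 133 flanks were at most 5500 bp, the shortest being 5174 bp.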

How the data were processed

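The build BDGP5 and the tools BWA, MACS2 and CASAVA (1.7.0.2, 1.7.0.3) are named in the submitters' processing notes; their roles, thresholds and whether replicates were pooled are not given in the sources read. The deposited file holds 1 peak list with a start, an end and a score per peak from MACS on FlyBase release 5, per the file headers. Positions are 1-based.

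Peaks of 6 sequences were sorted by midpoint and chained at distances of at most 5000 bp; chains of 5 or more are the groups. The members and lists were chosen with earlier results of these data known. Groups named are those of 10 or more peaks, the fullest of each sequence and, for each of 5 further properties, the first 5; 8 more are named only because another group lies within 20 kb, a choice made after their values were seen. A Poisson background was fitted to the 84 scores shared by 5 or more peaks and matched 74 of them within 0.0061. Chaining and median intervals were tested on simulated data. No p-value was computed. Python 3.11.15, numpy 2.4.6, pandas 2.3.3, scipy 1.17.1 and matplotlib 3.10.9 were used. The gene table at hand (release 6) is of another build and served only for the symbol of CG5591. No sequence is printed, since no genome of release 5 was used here. The alternatives were other distances and minimum sizes, edge distances, joining of peaks, other comparison peaks, high scores only and leaving out each large arm.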

Additional observations from a re-analysis of the deposited data

Results flagged for a closer look

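Groups by the same rule were also found on Uextra, a collection of unplaced sequence that the comparisons above do not use. There 113 of 417 peaks lay in 9 groups of 5 or more, the largest with 28 peaks, which is above the 16 of the fullest group on the arms. They drew attention because any groups are found outside the analysed sequences. Their median score was 36.22 and their median width 332 bp, compared with 14.86 and 475 bp in the groups of the arms. Neighbours on Uextra need not be neighbours in the genome. None of the 10 peaks on U was in such a group.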

How the results depend on the processing

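Of 50 alternatives, all set with the design, 35 left the value within 1.5 times (counts) or within its interval, 14 moved it and 1 turned a direction; the cause of the moves was not tested beyond the construction of each alternative. The number of members was 162 at 2000 bp, 768 at 10000 bp and 55 (joined stretches) after joining peaks within 1000 bp, against 490 as reported. The number of groups was 26 at 2000 bp, 131 with a minimum of 4 peaks, 42 with a minimum of 6 and 8 after joining, against 70. Each interval of a difference here is that of the member median less a fixed comparison median, whose own error is left out. The difference in median width between members and other peaks was 33 bp as reported. It was 192 bp after joining (interval -79 to 591 bp) and 91 bp among peaks scored above the median (37 to 166 bp). Against groups of 2 to 4 it was 8.5 bp (-26.5 to 49.5 bp). Its interval also lay above 0 at 10000 bp, with a minimum of 4 peaks, with edge distances and with 3L left out. In the other settings, and as reported, the interval reached below 0. The difference in median score, 0.87 as reported, was 1.55 among peaks scored above the median. It turned to -0.45 after joining, with an interval from -1.49 to 1.85. It was 0.12 at 2000 bp (-1.69 to 1.76) and 0.43 at 10000 bp and with a minimum of 4 peaks, within its reported interval of 0 to 1.5. The median covered share was 64.2% at 2000 bp, 28.3% at 10000 bp and 29.0% after joining, against 41.6%. The share of groups with the highest peak at neither end was 87.5% of the 8 groups after joining, against 57.1%. Leaving out any large arm kept the width difference between 26 and 38.5 bp and the score difference at 0.43 or 0.87. No paired analysis was possible because no column of the peak list belongs to a library, and for the same reason no replicate could be left out. With library depth unknown, the gaps between peaks are not shown to lack Cmi.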
